A study of Mus musculus with 16 samples.

Results

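Dox+RA iHCs of day 8 were set against control EBs of day 8, in 5 of the 16 arrays of the series and across 22180 genes. The iHCs (induced hair cell-like cells, 3 arrays) came from the mouse embryonic stem cell line iGPA-Myo7a:mVenus, in which doxycycline (Dox) induces the transcription factors Gfi1, Pou4f3 and Atoh1 together and a Myo7a reporter drives the fluorescent protein mVenus. They received Dox and retinoic acid (RA) from day 4 and were purified for mVenus by flow cytometry on day 8. The control EBs (floating embryoid bodies of that line, 2 arrays) received neither agent. Their source is labelled as untreated embryoid bodies, while their protocol text is the one given for all samples and describes the sort, so the labels do not settle whether they were sorted. They were read as unsorted, in which case treatment and sort cannot be told apart in this comparison. Dox iHCs of day 8 (3 arrays, Dox without RA, sorted alike) served to read the part of RA, and the 2 corresponding groups of day 12 to read the change over time. All arrays carry total RNA of 1 line. The arrays of a group are labelled as biological replicates.

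Hair cells are the mechanosensory cells of the inner ear. Atoh1 starts their differentiation, Pou4f3 and Gfi1 are needed for their maturation and survival, and a bundle of actin-filled stereocilia, joined by tip links, opens the transduction channel that drives release at ribbon synapses. Retinoic acid binds nuclear receptors and is known to switch on anterior Hox genes in differentiating embryoid bodies. In bulk samples such as these, fewer cells of a type and less RNA per cell cannot be told apart.

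Levels are log2 RMA values, so that a difference of 1 is a factor of 2. Differences are Dox+RA iHCs minus control EBs unless stated, ± is limma's standard error, and a gene was called when limma's Benjamini-Hochberg adjusted p over all 22180 genes was under 0.05. Genes of different levels are not compared with one another, since each has its own probes. The replicate arrays correlated at 0.988 to 0.994 within Dox+RA iHCs and at 0.992 within control EBs, against 0.889 to 0.897 between the groups. The median gene differed by 0.05.

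Of the 22180 genes, 9223 were called, which is 41.6%. Dox+RA iHCs had the higher level for 4347 genes (19.6%) and the lower one for 4876 (22.0%). A difference of 2-fold or more was reached by 1500 of the higher and 2004 of the lower genes, 4-fold by 511 and 616, and 16-fold by 59 and 36. The arrays of the groups did not overlap for 61.1% of all genes. Shares of called members in a gene list are to be read against these backgrounds. Leaving out single arrays gave 7135 to 8631 called genes.

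**Figure D1:**
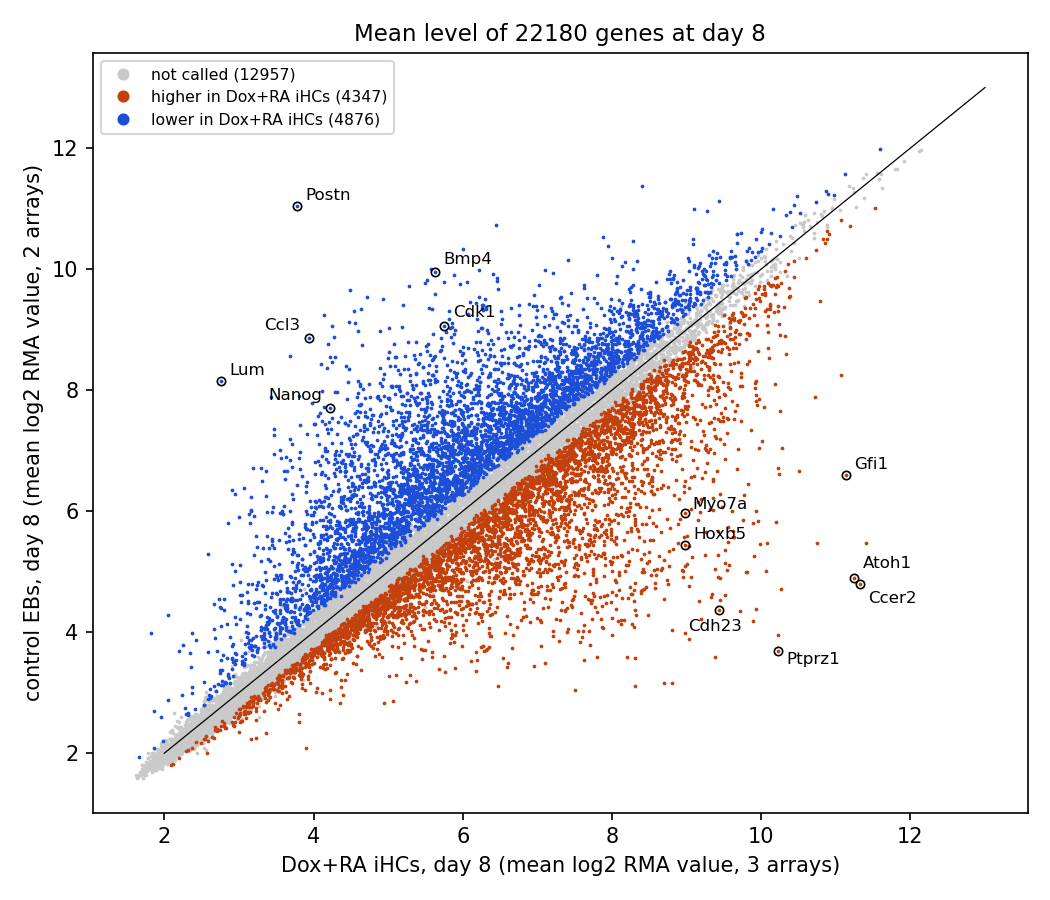
Mean level of each gene in Dox+RA iHCs (x axis, log2 RMA value, 3 arrays) and in control EBs (y axis, log2 RMA value, 2 arrays) at day 8, with the line of equal levels; orange and blue points are called higher and lower, grey ones not called. Atoh1, Ccer2 and Ptprz1 lie far to the lower right, and Postn and Lum far to the upper left.

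The induced factors were checked first. Atoh1, the basic helix-loop-helix factor that specifies hair cells, had levels of 11.06, 11.18 and 11.51 in Dox+RA iHCs and 4.71 and 5.07 in control EBs (difference 6.35 ± 0.14, adjusted p = 5.02e-13). Pou4f3, a POU-domain factor, stood at 11.36, 11.38 and 11.49 in Dox+RA iHCs and at 5.13 and 5.82 in control EBs (5.94 ± 0.19, adjusted p = 1.32e-11). The zinc-finger repressor Gfi1 stood at 11.17, 11.05 and 11.18 in Dox+RA iHCs and at 6.72 and 6.47 in control EBs (4.54 ± 0.11, adjusted p = 1.47e-12). All 3 factors were thus high in every array of Dox+RA iHCs, with no overlap, and the array probes may read the transgenes and the cells' own transcripts alike. Myo7a, the unconventional myosin of the reporter used in the sort, had 9.33, 9.19 and 8.40 in Dox+RA iHCs and 6.11 and 5.83 in control EBs (8.01-fold higher, adjusted p = 4.26e-07). Replicate 3 had the lowest Myo7a level among the iHC arrays, and it was still above both control arrays.

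The 10 hair cell markers (Atoh1, Pou4f3, Gfi1, Myo7a, Myo6, Lhx3, Barhl1, Otof, Cdh23 and Espn) were all called higher. Their mean level ran from 9.54 to 9.70 in Dox+RA iHCs and from 5.34 to 5.42 in control EBs. The first 4 of them are the genes that were induced or sorted on. All 10 were chosen with earlier results of these data known, so their count is not an independent test of hair cell identity. The longer hair cell lists described below also held members that were lower or not called. Of 31 transcription and splicing regulators of hair cells, 17 were higher, 5 lower and 9 not called. Of 8 neuron markers 5 were higher (mean 6.67 to 6.85 in Dox+RA iHCs, 4.67 to 4.92 in control EBs). Of 7 markers of Merkel cells, touch receptors of the skin that also need Atoh1, 5 were higher and 1 was lower (mean 8.58 to 9.10 in Dox+RA iHCs, 6.89 to 6.91 in control EBs). They were Krt8, Krt18, Krt20, Isl1, Sox2, Piezo2 and Rab3c. The lower one, Krt18 (-0.69 ± 0.21), lost its call in some of the alternative fits described below. Sox2 is also a supporting cell marker. Of 6 supporting cell markers 3 were higher and 2 lower. Markers of other embryoid body lineages were lower in 5 of 6 cases for heart, 3 of 6 for endoderm, 5 of 5 for red cells, 5 of 5 for endothelium and 3 of 5 for pluripotent cells. The part of neuron-like or Merkel-like cells in the results below was not tested.

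Tip link and mechanotransduction genes were mostly higher. Of 12 tested, 10 were higher, 1 was lower and 1 was not called, with a median difference of 2.73 against 0.05 over all genes. Cdh23, the cadherin of the upper tip link, had levels of 9.52, 9.49 and 9.31 in Dox+RA iHCs and 4.28 and 4.44 in control EBs (5.08 ± 0.19, adjusted p = 6.86e-11). Its lower partner Pcdh15 had 8.00, 8.13 and 8.23 in Dox+RA iHCs and 4.26 and 4.01 in control EBs (3.98 ± 0.13, adjusted p = 1.44e-11). Both tip-link cadherins stood apart from control EBs by many times the spread of the arrays. Across the alternative fits described below, the difference of Pcdh15 ran from 2.02 to 4.11 and that of Cdh23 from 5.00 to 5.17. Tmie, a subunit of the transduction channel complex, had 8.50, 8.53 and 8.39 in Dox+RA iHCs and 4.20 and 4.36 in control EBs (4.20 ± 0.17, adjusted p = 8.91e-11). Cib3, a calcium-binding partner of that channel, had 7.71, 8.24 and 8.54 in Dox+RA iHCs and 4.20 and 4.21 in control EBs (3.96 ± 0.27, adjusted p = 2.27e-08).

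Among further members of this list, chosen after their values were seen, the channel subunit gene Lhfpl5 differed by 3.03 ± 0.33, the pore gene Tmc2 by 2.42 ± 0.32 and the pore gene of mature hair cells, Tmc1, by 0.52 ± 0.18. Tmc1 had 4.84, 4.66 and 4.44 in Dox+RA iHCs and 4.06 and 4.20 in control EBs, and Tmc2 had 7.34, 7.23 and 6.80 in Dox+RA iHCs and 4.56 and 4.83 in control EBs. Piezo1, a mechanically gated channel of many other cell types, was the member that fell, at 6.76, 6.78 and 6.37 in Dox+RA iHCs and 8.78 and 8.69 in control EBs (-2.10 ± 0.27, adjusted p = 1.55e-05). Piezo2, the channel of touch receptors, rose by 3.61 ± 0.25 (adjusted p = 2.8e-08). Myo1c, a myosin of the adaptation motor, was not called (0.34 ± 0.14, adjusted p = 0.0576).

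Of 8 unconventional myosins of hair cells 5 were higher, 2 lower and 1 not called. Myo15, which carries elongation factors to stereocilia tips, had 9.36, 9.35 and 9.27 in Dox+RA iHCs and 4.55 and 4.61 in control EBs (4.75 ± 0.29, adjusted p = 6.48e-09). Myo3b, a myosin with a kinase domain, rose by 3.56 ± 0.32 (adjusted p = 3.86e-07), and Myo6, which anchors stereocilia at their base, by 2.08 ± 0.18 (adjusted p = 2.09e-07). The close relative Myo3a had 3.19, 3.12 and 3.25 in Dox+RA iHCs and 3.16 and 3.30 in control EBs and was not called (-0.04 ± 0.09, adjusted p = 0.769). Myo10, a filopodial myosin, differed by -1.71 ± 0.20 (adjusted p = 5.62e-06), and Myo5a, an organelle transporter, by -0.90 ± 0.25 (adjusted p = 0.00781), a call that was lost without control EB replicate 2 (adjusted p = 0.0968).

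The list of the stereocilia core, tips, links and root was split. Of 32 members 17 were higher, 6 lower and 9 not called, and without control EB replicate 2 the higher count was 11 and the lower one 3. Fbxo2, a ubiquitin ligase subunit abundant in the cochlea, had 8.78, 8.27 and 7.89 in Dox+RA iHCs and 4.97 and 4.65 in control EBs (3.50 ± 0.24, adjusted p = 1.85e-08). Loxhd1, a stereocilia protein with many PLAT domains, had 8.00, 7.89 and 6.73 in Dox+RA iHCs and 3.82 and 4.21 in control EBs (3.53 ± 0.42, adjusted p = 6.48e-06). Replicate 3 of the iHCs was again the lowest of its group for Loxhd1. The same held for Grxcr2, a protein of the stereocilia base, with 7.43, 7.17 and 5.56 in Dox+RA iHCs and 4.16 and 4.00 in control EBs (2.64 ± 0.77, adjusted p = 0.0119), whose call was lost without control EB replicate 1 (adjusted p = 0.0503) or 2 (adjusted p = 0.0714).

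Plastins, which bundle actin, differed in both directions. Pls3, a plastin of many cell types, had 4.42, 4.79 and 4.88 in Dox+RA iHCs and 7.59 and 7.70 in control EBs (-2.95 ± 0.21, adjusted p = 3.27e-08). The hair cell plastin Pls1, chosen after its values were seen, rose by 1.54 ± 0.28 (adjusted p = 0.000324). Fscn1, an actin-bundling fascin, differed by -0.94 ± 0.27 (adjusted p = 0.00980, and 0.0632 without control EB replicate 2). Whrn, a scaffold of stereocilia tips, was not called, at 5.74, 5.99 and 6.08 in Dox+RA iHCs and 5.58 and 5.86 in control EBs (0.21 ± 0.14, adjusted p = 0.249).

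**Figure D2:**
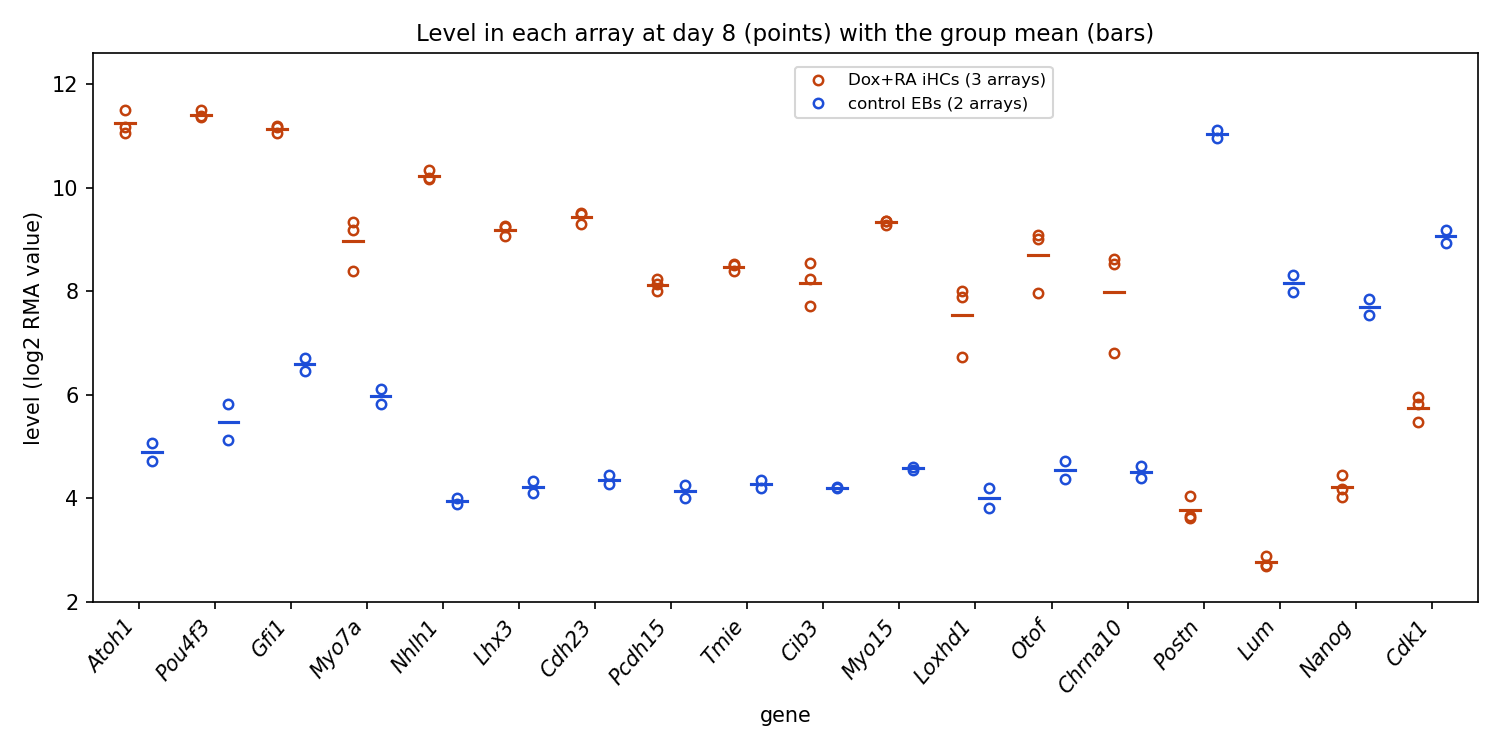
Level of 18 genes (log2 RMA value) in each array of Dox+RA iHCs (orange, 3 arrays, left of each pair) and of control EBs (blue, 2 arrays, right) at day 8; bars are group means. The groups do not overlap for any of these genes, some of which were named by a rule that required it. They do not overlap for 61.1% of all genes either. For Myo7a, Loxhd1, Otof and Chrna10, 1 iHC array lies below the rest of its group.

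Of 29 ribbon synapse and exocytosis genes 21 were higher, 2 lower and 6 not called. Syt1, a calcium sensor of vesicle release, had 9.41, 9.23 and 9.39 in Dox+RA iHCs and 4.67 and 4.60 in control EBs (4.71 ± 0.18, adjusted p = 7.37e-11). Rimbp2, an active-zone scaffold, rose by 4.64 ± 0.18 (adjusted p = 8.91e-11), and Cabp2, a regulator of hair cell calcium channels, by 4.15 ± 0.19 (adjusted p = 3.89e-10). Otof, the release sensor of hair cells, had 9.09, 9.01 and 7.97 in Dox+RA iHCs and 4.72 and 4.38 in control EBs (4.14 ± 0.47, adjusted p = 3.71e-06). The iHC arrays varied for Otof as they did for Myo7a, with replicate 3 lowest.

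Members that define the ribbon synapse most closely did not all move in that direction. Ctbp2, whose long form Ribeye builds the ribbon, had 6.45, 6.48 and 6.86 in Dox+RA iHCs and 7.54 and 7.54 in control EBs (-0.94 ± 0.18, adjusted p = 0.000511), and the table does not separate its forms. Cacna1d, the calcium channel of hair cell release, had 5.43, 5.50 and 5.47 in Dox+RA iHCs and 4.36 and 5.44 in control EBs. It was not called (0.57 ± 0.24, adjusted p = 0.0772), and its difference ran from 0.02 to 1.11 across the alternative fits. Slc17a8, the vesicular glutamate transporter of inner hair cells, chosen after its values were seen, rose by 1.73 ± 0.16 (adjusted p = 4.31e-07).

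Calcium handling and channel genes had 7 of 17 members higher, 0 lower and 10 not called. Chrna10, a subunit of the cholinergic receptor of hair cells, had 8.62, 8.53 and 6.81 in Dox+RA iHCs and 4.39 and 4.63 in control EBs (3.48 ± 0.59, adjusted p = 0.000174). Its partner subunit Chrna9, chosen after its values were seen, was not called (0.95 ± 0.40, adjusted p = 0.0706). Atp2b2, the calcium pump of the bundle, had 8.39, 8.38 and 8.51 in Dox+RA iHCs and 5.12 and 4.88 in control EBs (3.43 ± 0.17, adjusted p = 1.13e-09). The related pump Atp2b1 did not follow, with 10.11, 9.95 and 9.37 in Dox+RA iHCs and 9.87 and 9.71 in control EBs (0.02 ± 0.20, adjusted p = 0.952). Slc26a5, the outer hair cell motor prestin, and Ocm, the outer hair cell calcium buffer oncomodulin, both also picked after their values were seen, were not called (0.03 ± 0.09 and 0.18 ± 0.15).

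Transcription and splicing regulators of hair cells were higher in 17 of 31 cases and lower in 5. Nhlh1, a helix-loop-helix factor of young hair cells and neurons, had 10.34, 10.16 and 10.18 in Dox+RA iHCs and 3.90 and 4.00 in control EBs (6.28 ± 0.21, adjusted p = 1.78e-11). The homeobox gene Barhl1, needed to maintain hair cells, had 8.59, 8.95 and 9.38 in Dox+RA iHCs and 3.82 and 4.16 in control EBs (4.98 ± 0.24, adjusted p = 8.24e-10). Lhx3, a LIM homeobox gene of hair cells and motor neurons, rose by 4.97 ± 0.20 (adjusted p = 1.07e-10), and its relative Lhx1 by 4.52 ± 0.33 (adjusted p = 4.59e-08). Among the lower members was Esrp1, an epithelial splicing regulator needed for inner ear development (-2.07 ± 0.27, adjusted p = 1.56e-05). Gata3, an otic and hair cell factor chosen after its values were seen, stood at 5.53, 5.40 and 5.56 in Dox+RA iHCs and 5.60 and 5.40 in control EBs and was not called (0.00 ± 0.10).

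Notch pathway genes moved in both directions. Of 28 members 16 were higher, 7 lower and 5 not called. Dll3, a Notch ligand that acts within the cell, had 9.64, 9.95 and 9.81 in Dox+RA iHCs and 4.84 and 5.14 in control EBs (4.81 ± 0.24, adjusted p = 9.09e-10). Jag2, a ligand made by hair cells, rose by 3.83 ± 0.17 (adjusted p = 3.35e-10), and Mfng, a sugar transferase that tunes Notch, by 4.62 ± 0.10 (adjusted p = 5.02e-13). The receptor Notch2 had 5.21, 5.65 and 5.45 in Dox+RA iHCs and 7.90 and 7.99 in control EBs (-2.51 ± 0.27, adjusted p = 2.54e-06). Jag1, the ligand of prosensory and supporting cells, differed by -2.36 ± 0.38 (adjusted p = 0.000109), the repressor Hey2 by -2.35 ± 0.21 (adjusted p = 4.02e-07) and Hes1 by -1.76 ± 0.28 (adjusted p = 9.66e-05). Hes5, another repressor downstream of Notch, rose (1.74 ± 0.23, adjusted p = 1.61e-05).

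E-boxes, the letters bound by helix-loop-helix factors such as Atoh1, were counted in the RefSeq promoters of GRCm38.p6 (250 bases before to 50 after each gene start, 16990 tested genes matched by symbol, any start site, both strands, motifs chosen with the results known). The letters CAGCTG were present in 27.6% of 399 genes called at least 4-fold higher, 18.2% of 445 called at least 4-fold lower and 18.1% of all genes. The letters CAGGTG (or CACCTG on the opposite strand) were present in 35.6% of the higher, 15.3% of the lower and 22.3% of all genes. A match is a description of the letters, and binding was not measured. The promoters of 3 genes with large rises are shown because each holds both E-boxes, which are in capitals: Ccer2 (plus strand, chr7:28755924-28756223), Dll3 (minus strand, chr7:28301736-28302035) and Myo15 (plus strand, chr11:60469089-60469388), each written 5′ to 3′ in the direction of the gene.
Ccer2: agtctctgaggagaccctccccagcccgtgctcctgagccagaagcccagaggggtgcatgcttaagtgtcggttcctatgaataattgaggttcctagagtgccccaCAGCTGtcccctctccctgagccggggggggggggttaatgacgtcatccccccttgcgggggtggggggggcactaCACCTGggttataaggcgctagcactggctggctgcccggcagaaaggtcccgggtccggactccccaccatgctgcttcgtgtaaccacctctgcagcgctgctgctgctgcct
Dll3: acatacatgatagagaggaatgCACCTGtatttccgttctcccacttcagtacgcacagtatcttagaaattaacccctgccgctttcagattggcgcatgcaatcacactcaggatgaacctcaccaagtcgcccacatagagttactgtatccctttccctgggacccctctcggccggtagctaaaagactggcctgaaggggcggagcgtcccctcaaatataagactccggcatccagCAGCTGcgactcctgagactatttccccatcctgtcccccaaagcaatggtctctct
Myo15: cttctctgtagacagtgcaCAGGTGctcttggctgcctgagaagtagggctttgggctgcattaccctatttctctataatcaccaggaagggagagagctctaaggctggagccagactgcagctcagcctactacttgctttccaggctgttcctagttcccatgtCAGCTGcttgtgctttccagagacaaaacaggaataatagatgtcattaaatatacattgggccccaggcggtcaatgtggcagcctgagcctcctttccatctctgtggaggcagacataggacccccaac

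Of the 20 largest rises, 6 (Atoh1, Nhlh1, Pou4f3, Cdh23, Barhl1 and Lhx3) are given above. Ptprz1, a receptor phosphatase of neural tissue, had 10.40, 10.22 and 10.06 in Dox+RA iHCs and 3.19 and 4.19 in control EBs, the largest rise of all (6.54 ± 0.39, adjusted p = 5.86e-09). Ccer2, a coiled-coil gene, had 11.25, 11.22 and 11.48 in Dox+RA iHCs and 4.91 and 4.67 in control EBs (6.53 ± 0.15, adjusted p = 5.02e-13). Both groups lay tightly together for Ccer2, whose promoter is printed above. Miat, a long noncoding RNA of neural cells, rose by 5.79 ± 0.19, the membrane gene Tmem255b by 5.71 ± 0.34 and the adhesion gene Cntn2 by 5.55 ± 0.15. Next came the peptidase gene Ecel1 (5.54 ± 0.16), the vesicle GTPase gene Rab3c (5.53 ± 0.33), the phospholipase gene Plch2 (5.36 ± 0.28) and gamma-synuclein, Sncg (5.28 ± 0.14). The difference of Rab3c ran from 2.76 to 5.74 across the alternative fits. The cell adhesion gene Hepacam2 (5.19 ± 0.27), the protocadherin Pcdh9 (5.14 ± 0.24), Slitrk6, needed for inner ear innervation (5.06 ± 0.19), the neurofilament gene Nefl (4.92 ± 0.34) and the adaptor gene Apba1 (4.90 ± 0.23) completed the first 20. The adjusted p of these genes was at most 2.6e-08 (Nefl).

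Neuronal genes were higher in 23 of 39 cases, lower in 2 and not called in 14, and the lower count was 1 without Dox+RA replicate 2 or either control EB array. Ebf1, a helix-loop-helix factor of neurons and other lineages, rose by 4.04 ± 0.14 (adjusted p = 2.37e-11). In contrast, Map1b, a microtubule protein of growing axons, had 8.28, 8.18 and 8.28 in Dox+RA iHCs and 9.50 and 9.49 in control EBs (-1.24 ± 0.17, adjusted p = 2.54e-05). Ncam1, a neural adhesion gene, was not called (-0.12 ± 0.18, adjusted p = 0.636). Of the 8 neuron markers, given here in full and chosen with their values known, 5 were higher. These were the neurofilament gene Nefl (4.92 ± 0.34), the microtubule gene Map2 (3.89 ± 0.21), the RNA-binding genes Elavl3 (2.41 ± 0.26) and Elavl4 (1.04 ± 0.35), and the splicing factor gene Rbfox3 (2.36 ± 0.18). The tubulin gene Tubb3 (0.14 ± 0.17), the microtubule-associated gene Dcx (0.24 ± 0.19) and the stathmin gene Stmn2 (0.44 ± 0.25) were not called. Map2 had 9.05, 8.88 and 9.09 in Dox+RA iHCs and 5.01 and 5.24 in control EBs, while Tubb3 had 4.67, 4.66 and 4.94 in Dox+RA iHCs and 4.39 and 4.86 in control EBs.

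Splicing regulators of the neural switch were higher in 15 of 28 cases and lower in 7. Srrm4, which drives neural and hair cell microexons, had 8.96, 9.15 and 8.76 in Dox+RA iHCs and 4.93 and 5.09 in control EBs (3.94 ± 0.22, adjusted p = 3.29e-09). Rbm24, a splicing factor of hair cells and muscle, rose by 3.92 ± 0.27 (adjusted p = 2.13e-08). Rest, the repressor of neural genes that Srrm4 inactivates, had 4.98, 5.13 and 5.33 in Dox+RA iHCs and 7.31 and 7.54 in control EBs (-2.28 ± 0.28, adjusted p = 7.84e-06). Mbnl3, a factor of undifferentiated cells, differed by -3.03 ± 0.11 (adjusted p = 3.72e-11). The general regulator Ptbp1 was not called, at 10.47, 10.39 and 10.38 in Dox+RA iHCs and 10.46 and 10.57 in control EBs (-0.10 ± 0.08, adjusted p = 0.356).

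Dense-core vesicle and neuropeptide genes were higher in 12 of 21 cases and lower in 0. Sst, the peptide somatostatin, had 8.82, 10.10 and 10.78 in Dox+RA iHCs and 5.47 and 5.03 in control EBs (4.65 ± 0.64, adjusted p = 2.61e-05). The granins Scg3 and Chgb rose by 4.61 ± 0.27 and 4.05 ± 0.27 (adjusted p = 4.86e-09 and 2.03e-08). Voltage-gated channel genes were higher in 17 of 37 cases and lower in 2, led by the potassium channel Kcnk9 (4.81 ± 0.42, adjusted p = 2.63e-07) and the calcium channel subunit Cacna2d2 (4.08 ± 0.18, adjusted p = 2.82e-10).

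Part of the RE1 element, to which Rest binds, was searched in the same promoters. The letters GGTGCTGAA (or TTCAGCACC on the opposite strand, which can share letters with CAGGTG) were present in 3.01% of the 399 genes at least 4-fold higher, 0.225% of the 445 at least 4-fold lower and 0.512% of all genes, or 12, 1 and 87 genes. A pair of the 12 is shown because they belong to hair cell lists, with the letters in capitals: Lhx3 (minus strand, chr2:26208200-26208499) and Lhfpl5 (plus strand, chr17:28575469-28575768).
Lhx3: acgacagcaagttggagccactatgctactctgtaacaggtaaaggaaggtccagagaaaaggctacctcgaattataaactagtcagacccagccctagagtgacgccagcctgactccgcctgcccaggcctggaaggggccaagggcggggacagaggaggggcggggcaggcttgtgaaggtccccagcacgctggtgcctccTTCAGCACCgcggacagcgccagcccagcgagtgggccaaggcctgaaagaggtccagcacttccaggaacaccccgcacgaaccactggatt
Lhfpl5: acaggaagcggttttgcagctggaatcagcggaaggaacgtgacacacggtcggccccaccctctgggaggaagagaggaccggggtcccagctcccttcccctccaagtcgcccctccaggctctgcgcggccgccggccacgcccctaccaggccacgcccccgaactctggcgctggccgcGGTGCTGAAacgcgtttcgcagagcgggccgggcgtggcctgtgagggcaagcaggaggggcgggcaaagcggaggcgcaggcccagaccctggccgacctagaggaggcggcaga

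Merkel cell genes went both ways (6 higher and 3 lower of 13). Krt20, an intermediate filament of Merkel cells, had 7.36, 7.69 and 8.31 in Dox+RA iHCs and 5.09 and 4.66 in control EBs (2.91 ± 0.25, adjusted p = 2.43e-07), while Krt8 was not called (-0.22 ± 0.20, adjusted p = 0.420) and Krt19 differed by -1.94 ± 0.21 (adjusted p = 2.39e-06). Otic and supporting cell genes were near the background, with 6 of 30 higher and 8 lower. Prox1, a homeobox gene of supporting cells and young hair cells, rose by 2.48 ± 0.25 (adjusted p = 1.25e-06), and the progenitor gene Sox2 had 9.51, 9.75 and 9.91 in Dox+RA iHCs and 7.92 and 8.51 in control EBs (1.51 ± 0.16, adjusted p = 2.43e-06). Slc1a3, the glutamate transporter of supporting cells and glia, was far lower, with 3.86, 3.88 and 3.69 in Dox+RA iHCs and 8.08 and 7.73 in control EBs (-4.10 ± 0.15, adjusted p = 4.75e-11). The progenitor gene Lgr5 was not called (0.74 ± 0.52, adjusted p = 0.282).

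**Figure D3:**
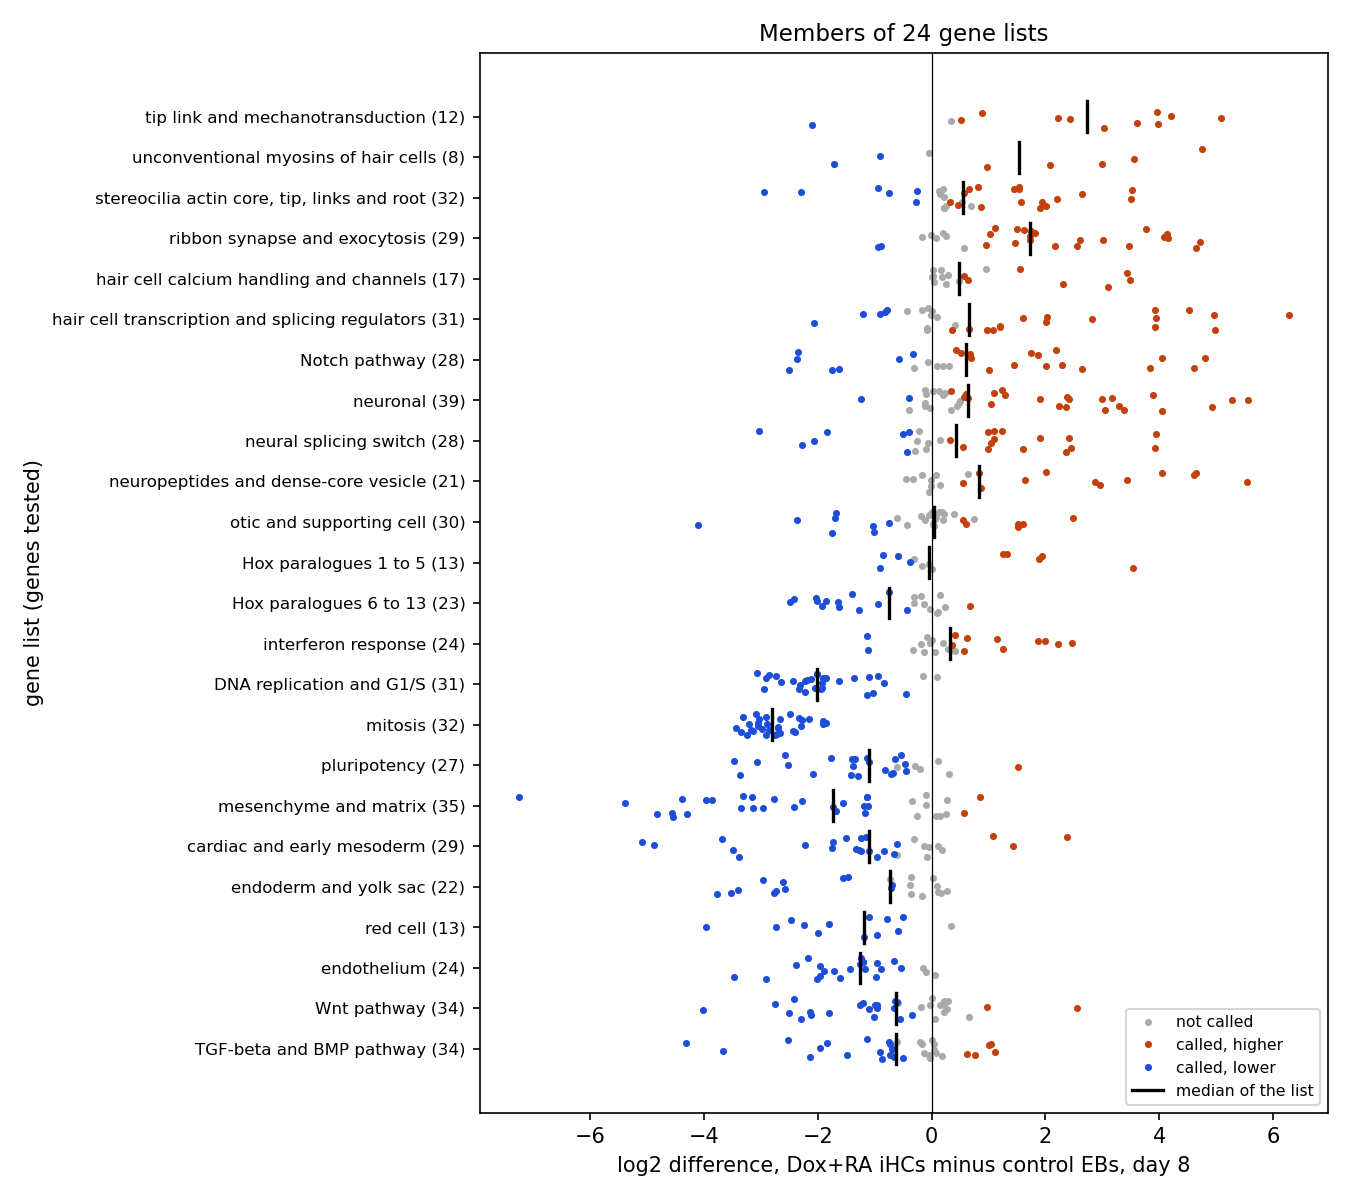
Log2 difference (Dox+RA iHCs minus control EBs, x axis) of each member of 24 gene lists (rows, genes tested in brackets) at day 8; orange and blue points are called higher and lower, grey ones not called, and the black bar is the median of the list. The tip link list has its median at 2.73 and the mitosis list at -2.81, with every mitosis gene lower.

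Genes of proliferation were lower almost without exception. Of 32 mitosis genes all 32 were lower, each by 2-fold or more, with a median of -2.81. Cdk1, the kinase that drives entry into mitosis, had 5.47, 5.96 and 5.82 in Dox+RA iHCs and 8.94 and 9.19 in control EBs (-3.31 ± 0.24, adjusted p = 3.94e-08). The spindle checkpoint kinase Bub1 had 4.46, 4.78 and 4.64 in Dox+RA iHCs and 7.89 and 8.26 in control EBs (-3.44 ± 0.21, adjusted p = 5.86e-09). Cyclin A2, Ccna2, differed by -3.34 ± 0.28 (adjusted p = 1.88e-07) and the checkpoint gene Bub1b by -3.24 ± 0.20 (adjusted p = 8.35e-09). Of 31 replication and G1/S genes 29 were lower and 2 not called, with a median of -2.01. The helicase subunit Mcm3 had 5.70, 6.12 and 5.77 in Dox+RA iHCs and 8.71 and 8.84 in control EBs (-2.91 ± 0.24, adjusted p = 1.61e-07), and the primase gene Prim1 differed by -3.06 ± 0.22 (adjusted p = 4.18e-08). The members not called were E2f1 (0.10 ± 0.15) and E2f2 (-0.15 ± 0.15), factors that activate replication genes. H1f5, a linker histone gene of dividing cells, differed by -4.45 ± 0.17 (adjusted p = 6.7e-11).

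Genes that restrain the cell cycle were mixed, with 8 of 16 higher and 4 lower, and the higher count was 5 without control EB replicate 1 and the lower count 2 without Dox+RA replicate 3 or control EB replicate 2. Rb1, the retinoblastoma gene, had 9.55, 9.50 and 9.52 in Dox+RA iHCs and 7.61 and 7.79 in control EBs (1.82 ± 0.14, adjusted p = 5.62e-08). Cdkn2d, an inhibitor that keeps hair cells out of the cycle, rose by 1.73 ± 0.17 (adjusted p = 6.31e-07). The inhibitor Cdkn1a differed by -0.68 ± 0.24 (adjusted p = 0.0320), a call lost in 5 of the 14 alternatives (highest adjusted p = 0.141, without control EB replicate 1).

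Letters known from cell-cycle promoters were searched in the same promoters. The CHR letters TTTGAA (or TTCAAA on the opposite strand) were present in 73.1% of the 26 mitosis genes with a promoter, against 17.8% of all genes. The E2F letters TTTGGCGC (both strands) were present in 6 of the 25 replication genes with a promoter, against 0.795% of all genes. Cdk1 (minus strand, chr10:69352863-69353162) and Ccnb2, cyclin B2 (minus strand, chr9:70421505-70421804), are shown for the CHR letters, which each holds at 2 places, and Mcm3 (minus strand, chr1:20820263-20820562) for the E2F letters, all in capitals. Ccnb2 differed by -3.04 ± 0.20 (adjusted p = 1.67e-08) and was picked after its values were seen.
Cdk1: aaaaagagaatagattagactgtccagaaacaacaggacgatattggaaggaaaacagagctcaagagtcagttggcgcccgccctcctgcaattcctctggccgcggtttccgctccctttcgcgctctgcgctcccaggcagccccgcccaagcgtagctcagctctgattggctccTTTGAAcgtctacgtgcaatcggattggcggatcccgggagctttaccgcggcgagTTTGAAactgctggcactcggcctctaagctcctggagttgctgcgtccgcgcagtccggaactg
Ccnb2: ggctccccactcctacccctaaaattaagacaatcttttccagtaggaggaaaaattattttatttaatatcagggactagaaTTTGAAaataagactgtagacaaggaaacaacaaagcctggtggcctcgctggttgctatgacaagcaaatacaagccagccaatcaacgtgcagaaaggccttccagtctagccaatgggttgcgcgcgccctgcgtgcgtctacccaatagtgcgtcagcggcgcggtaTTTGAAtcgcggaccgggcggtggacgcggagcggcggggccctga
Mcm3: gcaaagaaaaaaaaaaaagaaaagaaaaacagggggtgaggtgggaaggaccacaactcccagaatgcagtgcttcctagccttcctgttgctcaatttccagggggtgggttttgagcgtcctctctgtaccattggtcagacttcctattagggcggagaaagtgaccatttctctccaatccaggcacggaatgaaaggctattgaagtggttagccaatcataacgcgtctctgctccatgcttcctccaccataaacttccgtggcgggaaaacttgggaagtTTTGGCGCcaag

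Of the 20 largest falls, 6 belonged to the mesenchyme and matrix list and 2 to the cardiac list. Postn, the matrix protein periostin, had 3.63, 3.66 and 4.05 in Dox+RA iHCs and 11.11 and 10.96 in control EBs, the largest difference of any gene in either direction (-7.26 ± 0.39, adjusted p = 1.85e-09). Lum, the collagen-binding lumican, had 2.89, 2.69 and 2.71 in Dox+RA iHCs and 8.31 and 7.99 in control EBs (-5.38 ± 0.14, adjusted p = 1.85e-12). The iHC levels of Lum lay near the low end of the values in the table. Capn6, a calpain-family gene without protease activity, differed by -5.16 ± 0.42, the hyaluronan synthase gene Has2 by -4.82 ± 0.32, the protocadherin Pcdh18 by -4.81 ± 0.25, the developmental gene Mab21l2 by -4.76 ± 0.40 and the scavenger receptor gene Colec12 by -4.71 ± 0.28. They were followed by the methionine salvage gene Mtap (-4.65 ± 0.37), the matrix gene Frem1 (-4.61 ± 0.22), the mesenchymal repressor Snai2 (-4.57 ± 0.33), the ankyrin-repeat gene Asb4 (-4.56 ± 0.29), the growth factor receptor gene Pdgfra (-4.55 ± 0.28), the carbonic anhydrase gene Car4 (-4.44 ± 0.95), the receptor gene Nrp1 (-4.42 ± 0.23), the proteoglycan gene Dcn (-4.39 ± 0.28) and the glypican gene Gpc3 (-4.34 ± 0.67). The adjusted p of these genes was at most 0.00131 (Car4).

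Of 35 mesenchyme and matrix genes 25 were lower, all by 2-fold or more, 2 were higher and 8 were not called. The 8 mesenchyme markers were all lower (mean level 4.48 to 4.67 in Dox+RA iHCs and 8.73 to 9.15 in control EBs). The exceptions were Foxc1, a forkhead factor, at 7.04, 7.55 and 7.84 in Dox+RA iHCs and 6.46 and 6.81 in control EBs (0.84 ± 0.26, adjusted p = 0.0157), and Zeb1, a repressor of epithelial genes, at 7.57, 7.60 and 7.56 in Dox+RA iHCs and 7.19 and 6.84 in control EBs (0.56 ± 0.13, adjusted p = 0.00221). The call of Foxc1 was lost without control EB replicate 1 (adjusted p = 0.137) or Dox+RA replicate 3 (adjusted p = 0.0658), and that of Zeb1 without control EB replicate 2 (adjusted p = 0.0638). The proteoglycan gene Bgn was not called (0.14 ± 0.32, adjusted p = 0.764).

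Heart and early mesoderm genes were lower in 19 of 29 cases and higher in 3. Myl7, the atrial myosin light chain, had 4.14, 4.29 and 3.99 in Dox+RA iHCs and 8.60 and 9.87 in control EBs (-5.09 ± 0.43, adjusted p = 1.61e-07), and the cardiac factors Tbx20 and Hand1 differed by -4.87 ± 0.25 and -3.68 ± 0.19 (adjusted p = 1.33e-09 and 1.5e-09). The 3 higher members were the light chain Myl3 (2.38 ± 0.33), the natriuretic peptide Nppa (1.44 ± 0.20) and Isl1 (1.08 ± 0.34), a factor of heart progenitors that hair cells and neurons also express. Isl1 was not called without control EB replicate 2, Dox+RA replicate 2 or Dox+RA replicate 3 (adjusted p = 0.144, 0.0556 and 0.0596). Endothelial genes were lower in 21 of 24 cases and higher in 0, with Emcn, a surface sialomucin, at 4.59, 4.59 and 4.69 in Dox+RA iHCs and 8.29 and 7.91 in control EBs (-3.48 ± 0.25, adjusted p = 2.96e-08). Red cell genes were lower in 12 of 13 cases, with the embryonic globin Hbb-bh1 at 4.16, 4.78 and 4.36 in Dox+RA iHCs and 8.25 and 8.54 in control EBs (-3.96 ± 0.18, adjusted p = 2.73e-10).

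Endoderm genes were lower in 12 of 22 cases and higher in 0, with the yolk sac factor Gata6 at 6.64, 6.36 and 5.64 in Dox+RA iHCs and 10.22 and 9.75 in control EBs (-3.77 ± 0.39, adjusted p = 1.36e-06). Foxa1, a factor of endoderm and floor plate, was not called and varied among the iHC arrays (6.11, 7.34 and 7.85 in Dox+RA iHCs, 7.24 and 7.28 in control EBs). Of 26 myeloid and mast cell genes 10 were lower and 1 higher, and the higher count was 0 without Dox+RA replicate 1, Dox+RA replicate 2 or control EB replicate 2. The chemokine Ccl3 had 3.91, 4.04 and 3.86 in Dox+RA iHCs and 8.91 and 8.81 in control EBs (-4.92 ± 0.27, adjusted p = 2.28e-09), while 4 of the 5 myeloid markers were lower and their mean level was 4.26 to 4.40 in Dox+RA iHCs and 5.26 to 5.32 in control EBs. Pluripotency genes were lower in 21 of 27 cases. Nanog, a core factor of embryonic stem cells, had 4.03, 4.45 and 4.19 in Dox+RA iHCs and 7.54 and 7.86 in control EBs (-3.47 ± 0.33, adjusted p = 6.12e-07), and Utf1 differed by -3.36 ± 0.27 (adjusted p = 9.87e-08). Sox2, shared with neural and otic progenitors, was the 1 higher member. Pou5f1, chosen after its values were seen, was not called (-0.20 ± 0.11).

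Many genes of the Wnt and the TGF-beta and BMP pathways were lower as well. In the Wnt list 20 of 34 were lower and 2 higher. The Wnt antagonist Sfrp1 had 5.94, 5.79 and 5.94 in Dox+RA iHCs and 10.10 and 9.71 in control EBs (-4.01 ± 0.38, adjusted p = 6.53e-07), the agonist Rspo3 differed by -2.76 ± 0.19 (adjusted p = 2.27e-08), and Fzd3, a receptor of planar polarity in hair cells, rose by 2.55 ± 0.22 (adjusted p = 2.55e-07). The target gene Axin2 was not called (0.00 ± 0.21, adjusted p = 0.991). In the TGF-beta and BMP list 17 of 34 were lower and 5 higher. Bmp4 had 5.42, 5.60 and 5.85 in Dox+RA iHCs and 9.97 and 9.91 in control EBs (-4.32 ± 0.24, adjusted p = 2.82e-09), and Bmp5 differed by -3.67 ± 0.24 (adjusted p = 1.76e-08). The ligand Bmp7 and the antagonist Chrd were higher (1.12 ± 0.16 and 1.04 ± 0.14, adjusted p = 3.03e-05 and 2.3e-05).

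Hox genes of different clusters differed in direction. Of 13 genes of paralogues 1 to 5, 5 were higher and 4 lower, and all 5 higher ones belonged to the Hoxb cluster. Hoxb5 had 9.20, 8.79 and 8.93 in Dox+RA iHCs and 5.49 and 5.39 in control EBs (3.53 ± 0.20, adjusted p = 4.25e-09). Across the alternative fits described below, the difference of Hoxb5 ran from 2.07 to 3.62. Hoxb4 had 7.32, 6.55 and 6.60 in Dox+RA iHCs and 4.87 and 5.01 in control EBs (1.88 ± 0.23, adjusted p = 8.74e-06). Hoxb1 varied among the iHC arrays, with 6.84, 7.56 and 8.34 in Dox+RA iHCs and 5.69 and 5.57 in control EBs (1.94 ± 0.38, adjusted p = 0.000626). Hoxb3 rose by 1.33 ± 0.16 (adjusted p = 5.76e-06) and Hoxb2, named to complete the 5, by 1.25 ± 0.19 (adjusted p = 6.88e-05). The 4 lower ones, Hoxc4 (-0.90 ± 0.16), Hoxc5 (-0.85 ± 0.24), Hoxd3 (-0.58 ± 0.14) and Hoxd1 (-0.39 ± 0.13), were dim in both groups, and without control EB replicate 1 only Hoxc4 of these 4 was called. None of the 4 was bright enough to be tested when dim genes were left out. With that filter the higher count was 4, and Hoxb2 was not among them.

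Of 23 genes of paralogues 6 to 13, 13 were lower and 1 was higher. Hoxc8 had 4.37, 4.26 and 4.33 in Dox+RA iHCs and 6.66 and 6.95 in control EBs (-2.48 ± 0.16, adjusted p = 1.1e-08), Hoxc6 differed by -2.42 ± 0.15 and Hoxa13 by -2.02 ± 0.14 (adjusted p = 7.4e-09 and 2.97e-08). The higher one was again of the Hoxb cluster, Hoxb8 (0.68 ± 0.18, adjusted p = 0.00706), and it was not called without control EB replicate 1 (adjusted p = 0.127). Among genes that handle retinoids, the retinol receptor Stra6 rose by 3.39 ± 0.23 (adjusted p = 2.28e-08). Cyp26b1, which degrades RA, had 7.32, 7.84 and 8.18 in Dox+RA iHCs and 5.64 and 5.58 in control EBs (2.17 ± 0.24, adjusted p = 2.61e-06), and the carrier Rbp4 differed by -2.97 ± 0.38 (adjusted p = 1.2e-05). In that list 3 of 14 were higher (21.4%) and 2 lower (14.3%), which is near the background of 19.6% and 22.0% of all genes. Of 17 receptors and targets 5 were higher and 6 lower, and the Hox cofactor Meis1, a known RA target in other tissues, differed by -3.55 ± 0.28 (adjusted p = 8.38e-08).

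**Figure D4:**
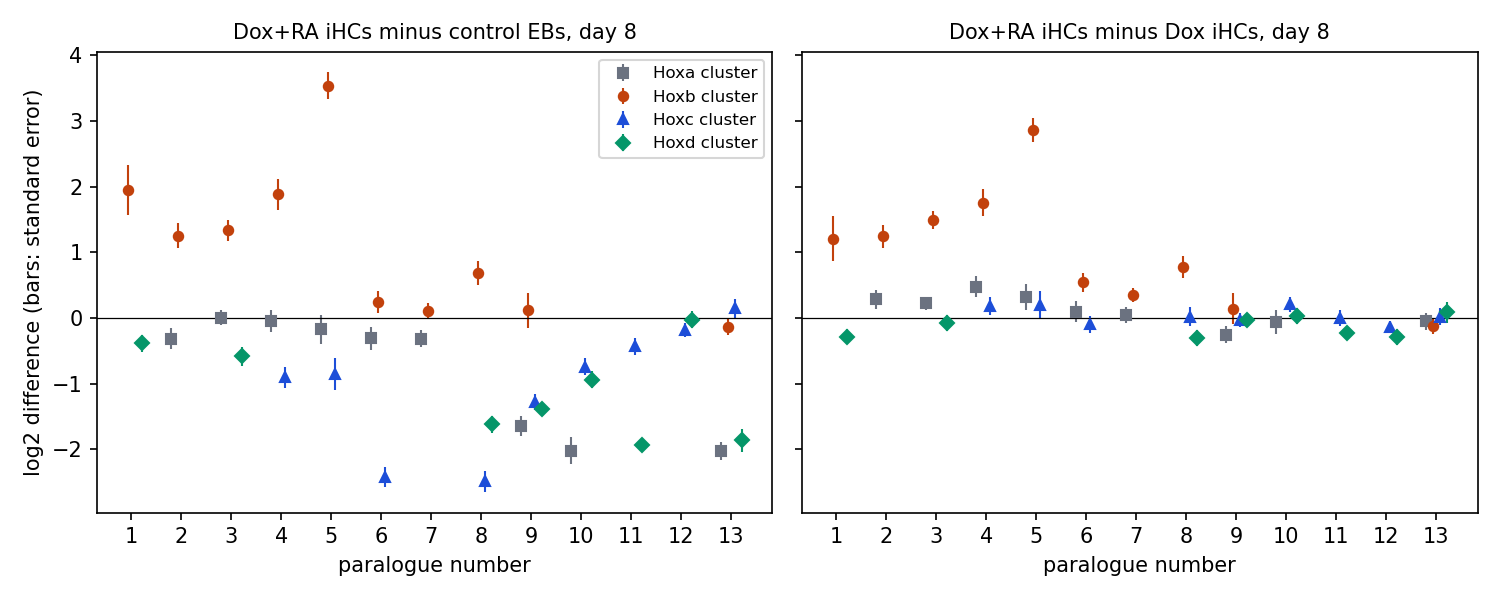
Log2 difference of each Hox gene at day 8 (y axis, bars are limma standard errors) by paralogue number (x axis) and cluster, for Dox+RA iHCs minus control EBs (left) and minus Dox iHCs (right). Hoxb5 is the highest point in both panels, at 3.53 and 2.85, and the low points of paralogues 6 to 13 in the left panel lie near 0 in the right.

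Dox+RA iHCs were then set against Dox iHCs of day 8, to read what RA added among sorted cells. In limma 1094 genes were called (4.93%), with 454 of them higher (2.05%) and 640 lower (2.89%). With the replicate number as a block the count was 2436, with 1054 higher and 1382 lower. The count rested on single arrays. It was 333 without Dox replicate 2, 416 without Dox replicate 3, 546 without Dox+RA replicate 2 and 625 without Dox+RA replicate 1. Without Dox+RA replicate 3 it was 828, and without Dox replicate 1 it was 1559. The 3 induced factors were not called (Atoh1 0.32 ± 0.13, Pou4f3 0.10 ± 0.17, Gfi1 0.09 ± 0.10; adjusted p = 0.182, 0.835 and 0.743).

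With predicted genes and small RNAs passed over, Hoxb5 was the largest rise over Dox iHCs (2.85 ± 0.18, adjusted p = 1.93e-06). It had 9.20, 8.79 and 8.93 in Dox+RA iHCs and 6.21, 6.04 and 6.11 in Dox iHCs. Of paralogues 1 to 5, 4 of 13 were higher than in Dox iHCs and 0 lower, all of the Hoxb cluster. Hoxb1 missed the threshold (1.21 ± 0.34, adjusted p = 0.0554). With the replicate number as a block 6 were higher, Hoxb1 (adjusted p = 0.00568) and, named after its value was seen, Hoxa4 (adjusted p = 0.0432) among them. Cyp26b1 had 7.32, 7.84 and 8.18 in Dox+RA iHCs and 6.22, 6.05 and 6.17 in Dox iHCs (1.63 ± 0.21, adjusted p = 0.000698). Crabp1, a cytoplasmic RA-binding protein, had 7.46, 7.92 and 8.86 in Dox+RA iHCs and 5.78, 6.20 and 6.27 in Dox iHCs (adjusted p = 0.00827), and it was not called against control EBs (0.21 ± 0.43).

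Interferon response genes were partly higher with RA. Of 24 tested, 11 were higher in Dox+RA than in Dox iHCs and 0 lower, and 10 were higher and 2 lower than in control EBs (1 lower when dim genes were left out). The mean level of the list was 5.89 to 6.08 in Dox+RA iHCs, 5.14 to 5.32 in Dox iHCs and 5.43 to 5.59 in control EBs. Oasl2, an antiviral protein of the oligoadenylate synthetase family, had 7.62, 7.96 and 7.68 in Dox+RA iHCs and 5.50, 4.97 and 4.29 in Dox iHCs (2.84 ± 0.25, adjusted p = 5.34e-05). Usp18, a protease that removes the ubiquitin-like Isg15, had 9.01, 9.26 and 9.55 in Dox+RA iHCs and 7.10, 6.27 and 6.45 in Dox iHCs (2.67 ± 0.26, adjusted p = 9.07e-05). All 3 Dox+RA arrays lay above all 3 Dox arrays for both genes. Both were named for their large differences, and the share of all genes without overlap was not counted for this contrast. Oas1b, of the same family as Oasl2, differed by 2.39 ± 0.24 (adjusted p = 9.87e-05), Mx2 by 2.13 ± 0.12 (adjusted p = 9.7e-07) and the transcription factor Irf9 by 1.14 ± 0.12 (adjusted p = 0.000173). H2-K1, a class I histocompatibility gene, and Ifit3 were not called (0.22 ± 0.24 and 0.12 ± 0.12; adjusted p = 0.711 and 0.693).

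Several bundle genes were also higher than in Dox iHCs. Cib3 had 7.71, 8.24 and 8.54 in Dox+RA iHCs and 5.46, 5.67 and 5.96 in Dox iHCs (2.47 ± 0.24, adjusted p = 9.07e-05), and Cdh23 had 9.52, 9.49 and 9.31 in Dox+RA iHCs and 8.74, 8.04 and 8.22 in Dox iHCs (1.10 ± 0.17, adjusted p = 0.00277). The Myo7a of the reporter differed by 1.02 ± 0.25 (adjusted p = 0.0279). Of 12 tip link and mechanotransduction genes 5 were higher, and 2 without Dox replicate 2, Dox replicate 3, Dox+RA replicate 1 or Dox+RA replicate 2. The tip link count was 7 without Dox replicate 1 or with the replicate block. Mitosis genes were lower than in Dox iHCs in 23 of 32 cases, with Cdk1 at 5.47, 5.96 and 5.82 in Dox+RA iHCs and 6.42, 7.09 and 7.53 in Dox iHCs (-1.26 ± 0.22, adjusted p = 0.00442). That count was 5 without Dox replicate 2, 8 without Dox replicate 3 and 8 without Dox+RA replicate 1. It was 13 without Dox+RA replicate 2, 14 when only the day 8 arrays were fitted and 19 without Dox+RA replicate 3. In the other direction it was 32 without Dox replicate 1, 29 with the replicate block and 25 with dim genes left out. The Dox arrays were spread along this axis, with a mean level of the mitosis list of 5.87, 6.40 and 6.71, against 5.24, 5.53 and 5.57 in the Dox+RA arrays.

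Of the 5 largest falls against Dox iHCs the first was Bgn, the proteoglycan biglycan, with 6.64, 6.98 and 6.77 in Dox+RA iHCs and 8.74, 9.50 and 9.54 in Dox iHCs (-2.46 ± 0.29, adjusted p = 0.000295). Igfbp5, which binds insulin-like growth factors, differed by -2.31 ± 0.31 (adjusted p = 0.000823), the matrix proteoglycan Vcan by -2.21 ± 0.35 (adjusted p = 0.00287), the peptide hormone gene Apela by -2.15 ± 0.42 (adjusted p = 0.00972, and 0.0540 without Dox replicate 2) and the gap junction gene Gja1 by -2.08 ± 0.35 (adjusted p = 0.00397). Against control EBs, Bgn was not called (0.14 ± 0.32), and Vcan and Gja1 were lower (-3.13 ± 0.39 and -3.23 ± 0.39).

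**Figure D5:**
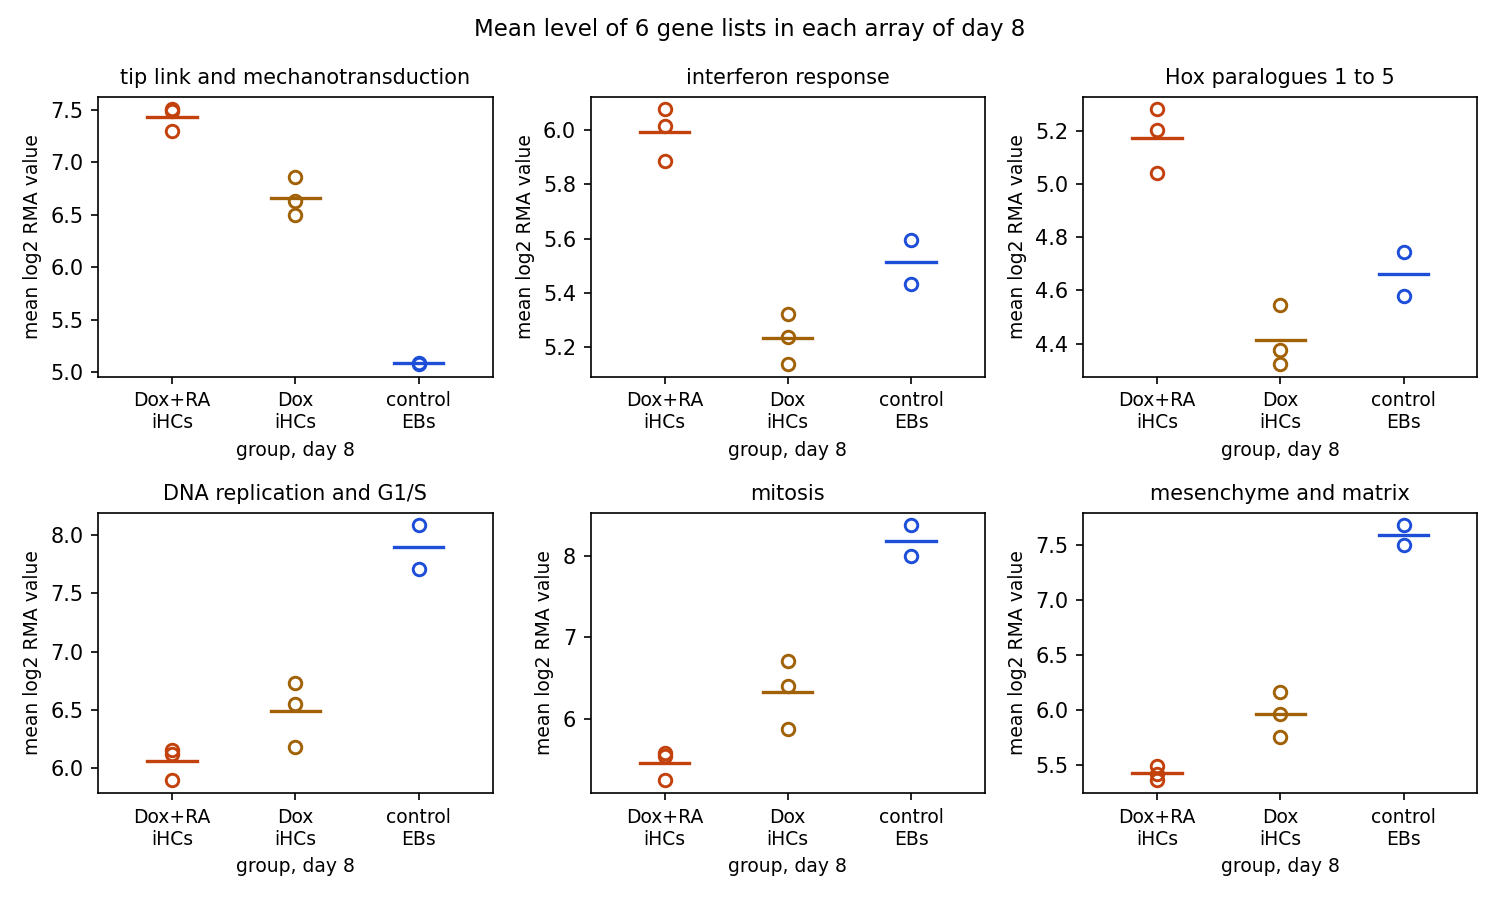
Mean level (log2 RMA value, y axis) of 6 gene lists in each array of Dox+RA iHCs, Dox iHCs and control EBs at day 8; bars are group means, and each panel has its own axis. Dox+RA iHCs lie above both other groups for the interferon and Hox lists and below both for the mitosis list, where the Dox arrays are spread from 5.87 to 6.71.

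Last, the difference at day 8 was compared with the same difference at day 12, when the cells had been treated for 8 days. In limma's test of the difference between the days 582 genes were called (2.62%), 370 with a higher (1.67%) and 212 with a lower (0.956%) value at day 8. With the replicate number as a block the count was 1150, with 695 and 455. It was 268 without control EB replicate 2 of day 8, 272 without control EB replicate 1 of day 12 and 378 without Dox+RA replicate 2 of day 12. Among the genes described above, the difference between the days was not called for Cdh23, Hoxb5 and Cdk1. Cdh23 differed from control EBs by 5.08 at day 8 and 4.92 at day 12, Hoxb5 by 3.53 at day 8 and 2.98 at day 12, and Cdk1 by -3.31 at day 8 and -4.03 at day 12 (adjusted p of the difference 0.875, 0.437 and 0.376).

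Of 24 interferon response genes 7 had a higher difference at day 8 and 0 a lower one. The count was 4 without Dox+RA replicate 2 or control EB replicate 1 of day 8, Dox+RA replicate 1 or 2 of day 12, or control EB replicate 2 of day 12, and 3 without control EB replicate 1 of day 12. Mx2 was 2.21 above control EBs at day 8 and 0.09 at day 12 (adjusted p of the difference 3.56e-05), and Oasl2 was 1.99 at day 8 and -0.35 at day 12 (adjusted p 0.00461). Red cell genes also differed between the days, with 6 of 13 called: Hbb-bh1 was -3.96 at day 8 and -2.33 at day 12 (adjusted p 0.00205).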

How the data were processed

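Each of 16 total RNA samples was hybridised to 1 Affymetrix Mouse Gene ST array. The authors deposited log2 values, and the submitters' processing notes name RMA and Affymetrix Expression Console without a version. RMA corrects background, gives arrays a common distribution and compresses changes at low signal. Precision is set by how few arrays a group has. Of 33708 entries 23521 carry 1 gene symbol, 1814 several and 8373 none. For 1082 genes with several entries the one with the highest mean was used, leaving 22180 genes.

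The fit over the 16 arrays used 1 mean per group (6 groups) and limma's eBayes (limma 3.58.1 under R 4.3.3), with Benjamini-Hochberg adjustment per contrast (3 contrasts). In simulated data for Dox+RA iHCs against control EBs of day 8 over 22180 genes, 94% of 100 genes changed by 1 (log2) and 99% of 100 changed by 2 were recovered. Of the unchanged genes 11 were called. The simulated data held no other group difference and no link between same-numbered arrays, so these rates need not hold here. p-values measure the spread between these arrays.

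The members, motifs and 41 gene lists were chosen with earlier results of these data known. Lists are described by counts beside those over all genes. Named genes are the induced factors and Myo7a, the 20 largest non-overlapping rises and falls, up to 4 called members per list and direction with up to 2 not called, and 5 per direction of the other contrasts. Genes picked otherwise are marked in the text. Promoters are from RefSeq (GRCm38.p6).

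Same-numbered arrays of Dox+RA and Dox iHCs of day 8 deviated together (r = 0.31, 0.25 and 0.32 after group means were taken out), as did those of Dox+RA iHCs of both days (0.30, 0.15 and 0.35). The counts with a replicate block stand beside those contrasts. Alternatives were other sets of arrays, a replicate block, a filter on dim genes, median centring and quantile normalization. Further ones were the mean of entries, all entries, a trended robust prior and leaving out arrays. Stricter call rules were applied to the counts and are not among the 14 alternatives per gene.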

Additional observations from a re-analysis of the deposited data

Results flagged for a closer look

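The difference between Dox+RA iHCs and control EBs was not the same at day 8 and day 12 for the following genes, by limma's test of the difference between the days (day 8 difference minus day 12 difference, over all 22180 genes). Rxfp2, a relaxin-family receptor gene, was 4.95 (adjusted p = 3.07e-06), being 0.79 at day 8 and -4.16 at day 12. Sst was 4.61 (adjusted p = 0.0126), a call lost without control EB replicate 2 of day 8 (adjusted p = 0.0720) or control EB replicate 1 of day 12 (adjusted p = 0.0722). The neurofilament gene Nefl was 4.18 (adjusted p = 0.000279), with 4.92 at day 8 and 0.74 at day 12, and Slitrk6 was 3.59 (adjusted p = 6.39e-06). The albumin gene Alb was 4.14 (adjusted p = 4.1e-07), with a difference from control EBs of 0.10 at day 8 and -4.05 at day 12. From day 8 to day 12 the mean level of Alb went from 3.97 to 8.16 in control EBs and from 4.07 to 4.12 in Dox+RA iHCs. That of Nefl went from 4.53 to 6.10 in control EBs and from 9.45 to 6.84 in Dox+RA iHCs.

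In the other direction, Cited4, a transcriptional coactivator gene, was -3.38 (adjusted p = 0.000201) and Myl7 was -3.01 (adjusted p = 0.0142). The call of Myl7 was lost without control EB replicate 2 of day 8 (adjusted p = 0.0972) or control EB replicate 1 of day 12 (adjusted p = 0.0678). The adaptor gene Grap2 was -2.59 (adjusted p = 0.000219), the red cell membrane gene Rhag -2.35 (adjusted p = 0.00186) and the embryonic globin Hbb-y -2.21 (adjusted p = 0.000595). Each of these 5 was lower in Dox+RA iHCs than in control EBs at day 8. From day 8 to day 12 the mean level of Myl7 went from 9.23 to 6.63 in control EBs and from 4.14 to 4.54 in Dox+RA iHCs. That of Hbb-y went from 7.90 to 5.28 in control EBs and from 5.18 to 4.76 in Dox+RA iHCs.

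Signal also differed among entries that carry no symbol or several and were left out of the comparisons: 2270 of 10187 such entries (22.3%) were called between Dox+RA iHCs and control EBs at day 8 when all entries were tested, 1285 higher and 985 lower. The genes behind them are not named here.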

How the results depend on the processing

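Of 344 genes chosen by the naming rule, 270 were called between Dox+RA iHCs and control EBs at day 8. The 14 alternatives do not include the stricter call rules. Of the 270, 240 kept the call in all 14 alternatives and 27 lost it in at least 1. The other 3 (Hoxc4, Ifit2 and Tfap2a) kept it wherever they were tested and were not tested when dim genes were left out. In these alternatives 0 changed sign. The count of called genes was 3504 (1500 higher and 2004 lower) when a difference of 1 (log2) was also required, and 7135 to 8631 without single arrays (3245 to 4045 higher, 3890 to 4586 lower). With the replicate block it was 9863 (4732 and 5131), although same-numbered arrays of Dox+RA iHCs and control EBs did not clearly deviate together (r = 0.0526 and 0.107). Called members of the gene lists were 498 to 565 without single arrays, against 585 in all arrays. Of small list counts, neuronal genes lower were 1 and myeloid genes higher 0 with only the day 8 arrays or only the 2 groups fitted, cholesterol synthesis genes higher were 2 and red cell genes higher 1 with the block, and neuropeptide genes lower were 1 with only the day 8 arrays, with the block, without dim genes or without Dox+RA replicate 3.

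For Dox+RA against Dox iHCs, the replicate block gave 2436 genes (1054 higher and 1382 lower), a required difference of 1 gave 250 (115 and 135) and an adjusted p under 0.01 gave 336 (157 and 179). Single arrays left out gave 333 to 1559 (162 to 593 and 171 to 966). For the comparison of days, the block gave 1150 (695 and 455), a required difference of 1 gave 347 (237 and 110) and an adjusted p under 0.01 gave 227 (158 and 69). Single arrays left out gave 268 to 686 (177 to 438 and 84 to 256). Leaving out a control EB array leaves 1 array, which is then assumed to vary like the other groups. The cause of these moves was not tested beyond the fewer arrays and stricter rules themselves. The number of arrays, not a read depth, limits the precision, and levels near the low end of the signal understate differences.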

Other observations

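Among gene groups not described above, neural helix-loop-helix factors were higher in 9 of 26 cases and lower in 5, and the lower count was 2 without Dox+RA replicate 1, Dox+RA replicate 3 or control EB replicate 2. Tcf12, a widely expressed dimer partner of these factors, differed by -0.70 ± 0.09. Of 26 neural progenitor genes 7 were higher and 4 lower (2 without control EB replicate 2). Sox1, a factor of the early neural plate, had 6.82, 7.83 and 8.62 in Dox+RA iHCs and 4.63 and 4.58 in control EBs (3.15 ± 0.47, limma's adjusted p = 5.86e-05). Dbx1, a homeobox gene of ventral neural progenitors, had 6.29, 6.98 and 8.67 in Dox+RA iHCs and 4.30 and 4.45 in control EBs (2.94 ± 0.61, adjusted p = 0.00103). Dox+RA replicate 3, which was lowest for Myo7a, was the highest array for Sox1, Dbx1 and Hoxb1. Neural crest and glia genes were 3 higher and 3 lower of 13 (23.1% each), near the 19.6% and 22.0% of all genes. Among them Sox10 differed by 1.61 ± 0.16 and the endothelin receptor gene Ednrb by -2.36 ± 0.19. In surface epithelium 5 of 22 were higher and 8 lower. The tight-junction gene Cldn3 rose by 3.76 ± 0.25, and the desmosome gene Dsp differed by -2.13 ± 0.39.

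Chromatin genes were higher in 10 of 30 cases and lower in 11 (6 without control EB replicate 2). Actl6b, the neuronal subunit of the BAF remodelling complex, had 6.25, 6.34 and 6.60 in Dox+RA iHCs and 4.36 and 4.23 in control EBs (2.10 ± 0.17, adjusted p = 1.35e-07), while the DNA methyltransferase Dnmt3b differed by -2.52 ± 0.35 and the Polycomb enzyme Ezh2 by -1.81 ± 0.15. Of 20 p53 targets and apoptosis genes 11 were lower and 2 higher, with Hrk, a cell death gene of neurons, at 1.94 ± 0.25 and the death receptor Fas at -1.82 ± 0.23. Of 33 cilia genes 8 were higher (24.2%) and 3 lower (9.09%), against 19.6% and 22.0% of all genes. In the fit over all arrays, the immediate early genes given last were near the background, with 20% higher and 20% lower (19.6% and 22.0% of all genes). In glycolysis and hypoxia 6 of 21 were higher (3 without control EB replicate 1) and 6 lower, and Gapdh was not called (-0.02 ± 0.10). Cholesterol synthesis genes were lower in 10 of 17 cases (6 without control EB replicate 2) and higher in 1. Immediate early genes, which dissociation can induce, were higher in 5 of 25 cases (3 without control EB replicate 1) and lower in 5 (2 without control EB replicate 2, 10 with only the day 8 arrays or only the 2 groups fitted, and 12 with the replicate block), and Jun was not called (0.09 ± 0.20).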
